A study of Caenorhabditis elegans with 9 samples.

Results

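The genes described here encode the cyclins, cyclin-dependent kinases (CDKs) and CDK regulators that drive cell division in the germ line of Caenorhabditis elegans. They are the kinases cdk-1 and cdk-2, the cyclins cya-1, cyb-1, cyb-2.1, cyb-2.2, cyb-3 and cye-1, the CDK inhibitor cki-2 and the CDK-activating phosphatase cdc-25.1. They were chosen by symbol, as the rows of the expression table whose WormBase gene ID carries one of these names. This gave 10 of 46245 rows, and all 10 were among the 8572 genes tested, which had a mean of at least 1 FPKM. FPKM counts fragments per 1000000 mapped ones and per kilobase of transcript, so levels can be compared between genes per length. RNA came from germ lines extruded by decapitation of wild-type worms on day 6 of adulthood, in 3 groups of 3 libraries. In the group called iff-1 RNAi 15C, worms were kept at 15°C and fed bacteria that knock down iff-1, the gene of an eIF5A-type translation factor, by RNAi. In the EV 20C group, worms were kept at 20°C on bacteria with the empty RNAi vector, and in the EV 15C group they were kept at 15°C on the same vector. All worms had grown to adulthood on OP50 bacteria, and the RNAi feeding and the change of temperature both began at adulthood. Feeding RNAi acts throughout the body, and the labels name no restriction to a tissue and no number of worms per library. The series title speaks of inhibited proliferation of germ line stem cells, and the design text sets iff-1 RNAi 15C and EV 20C each against EV 15C.

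A CDK is inactive until it binds a cyclin, and different cyclins carry it through different steps of the cell cycle. CDK-2 with cyclin E (CYE-1) acts at entry into DNA replication, and in the C. elegans germ line it also helps to keep stem cells in the mitotic state. CDK-1 with B-type cyclins drives mitosis and the meiotic divisions. WEE1-family kinases hold CDKs inactive by phosphorylation, CDC-25 phosphatases remove that phosphate, and CKI proteins of the CIP/KIP family block the kinase by binding it. Much of the control in this tissue is on the mRNA: GLD-1 binds and represses cye-1 mRNA in early meiosis, and maturing oocytes store transcripts for the first embryonic divisions.

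The libraries had an estimated depth of 34.9 to 40.7 (in 1000000 fragments) and FPKM sums of 973003 to 1064980. All 8 germ line markers reached 1 FPKM, with summed levels of 2123 to 2221 FPKM across the 9 libraries. Single markers did change: against EV 15C, 2 of the 8 were called higher and 2 lower under iff-1 RNAi, and 1 lower at 20°C. For example, gld-1 had 905 to 971 FPKM in iff-1 RNAi 15C and 800 to 808 FPKM in EV 15C. In the other direction, glh-1 had 228 to 247 FPKM in iff-1 RNAi 15C and 304 to 327 FPKM in EV 15C. The RNAi target iff-1 had 104, 58.0 and 37.4 FPKM in iff-1 RNAi 15C, 2665, 2442 and 2479 FPKM in EV 20C, and 2677, 2653 and 2510.0 FPKM in EV 15C. It was far lower in every library labelled iff-1 RNAi (log2 -5.40, SE 0.29, adjusted p = 5.47e-05 against EV 15C by limma, on log2(FPKM + 1) with Benjamini-Hochberg adjustment, as in all tests across genes here). Of the lists for other cells, with 8 genes each, intestine markers summed to 51.2 to 247 FPKM and early embryo markers to 1.65 to 3.64 FPKM over the 9 libraries, med-1 of the embryo list being at 0. Muscle markers summed to 61.5 to 82.7 FPKM in iff-1 RNAi 15C, 48.1 to 80.2 FPKM in EV 20C and 92.7 to 113 FPKM in EV 15C, so that EV 15C stood above both, and 3 of the 6 tested were called lower at 20°C and 1 under iff-1 RNAi. Neuron markers, nearly all of it snb-1, summed to 216 to 224 FPKM in iff-1 RNAi 15C, 243 to 253 FPKM in EV 20C and 205 to 208 FPKM in EV 15C, also without overlap. Of the 4 tested, 2 were called higher under iff-1 RNAi than in EV 15C, and 1 was called higher at 20°C. Somatic gonad markers summed to 146 to 162 FPKM in iff-1 RNAi 15C, 122 to 180.1 FPKM in EV 20C and 146 to 173 FPKM in EV 15C. Of the 5 tested, 1 was called higher and 0 lower under iff-1 RNAi against EV 15C. Cuticle and epidermis markers summed to 9.72 to 19.4 FPKM in iff-1 RNAi 15C, 3.69 to 9.48 FPKM in EV 20C and 9.96 to 18.8 FPKM in EV 15C, and 2 of the 3 tested were called lower at 20°C. The part of such cells in the results below was not tested. The 8 sperm markers summed to 17.0 to 27.1 FPKM in iff-1 RNAi 15C, 3.19 to 4.12 FPKM in EV 20C and 5.43 to 8.86 FPKM in EV 15C, with 3 of the 8 (msp-3, msp-142 and spe-11) at 0 throughout. Most of this sum was 1 gene, fog-3 (23.7, 18.2 and 14.9 FPKM in iff-1 RNAi 15C), and only 2 of the 8 were tested. These 2 were called higher under iff-1 RNAi than in EV 15C, and 1 was called lower at 20°C. The 5 oocyte markers summed to 2458 to 2516 FPKM in iff-1 RNAi 15C, 2852 to 2954 FPKM in EV 20C and 2471 to 2583 FPKM in EV 15C. In such bulk samples fewer cells of a type and less RNA per cell cannot be told apart. Whether the libraries of a group stem from separate cultures is not stated in the labels, so every p-value here reflects only the spread among these libraries, some or all of which may be technical.

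All 10 genes were well expressed. The B-type cyclin gene cyb-3 stood highest of them in every group, with 819 ± 28.0 FPKM in iff-1 RNAi 15C, 982 ± 24.2 FPKM in EV 20C and 817 ± 7.62 FPKM in EV 15C (mean ± SD, n = 3 as for all means here), and lay above 98.3% of tested genes. The lowest was cdk-2, with 62.7 ± 1.12 FPKM in iff-1 RNAi 15C, 57.5 ± 5.28 FPKM in EV 20C and 58.7 ± 1.25 FPKM in EV 15C, above 61.5% of tested genes. Replicates lay close together: the coefficient of variation within groups averaged 1.15% for cdk-1 to 4.37% for cdk-2, and all 10 lay below the median of 5.77% over tested genes. In the EV groups cdk-1 came next below cyb-3, followed by cyb-1, cyb-2.2 and cyb-2.1. Their library ranges did not touch, except those of cdk-1 and cyb-1 in EV 20C. In iff-1 RNAi 15C cdk-1 stood below cyb-3 and below cyb-1 and cyb-2.2, whose ranges overlapped each other but not that of cdk-1. The genes cdc-25.1 and cye-1 followed in the middle, with cdc-25.1 above cye-1 in both EV groups and cye-1 above cdc-25.1 in iff-1 RNAi 15C, without overlap of their ranges in any group. The lowest 3 in every group were cya-1, cki-2 and cdk-2, and the ranges of cya-1 and cki-2 overlapped in EV 20C.

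**Figure D1:**
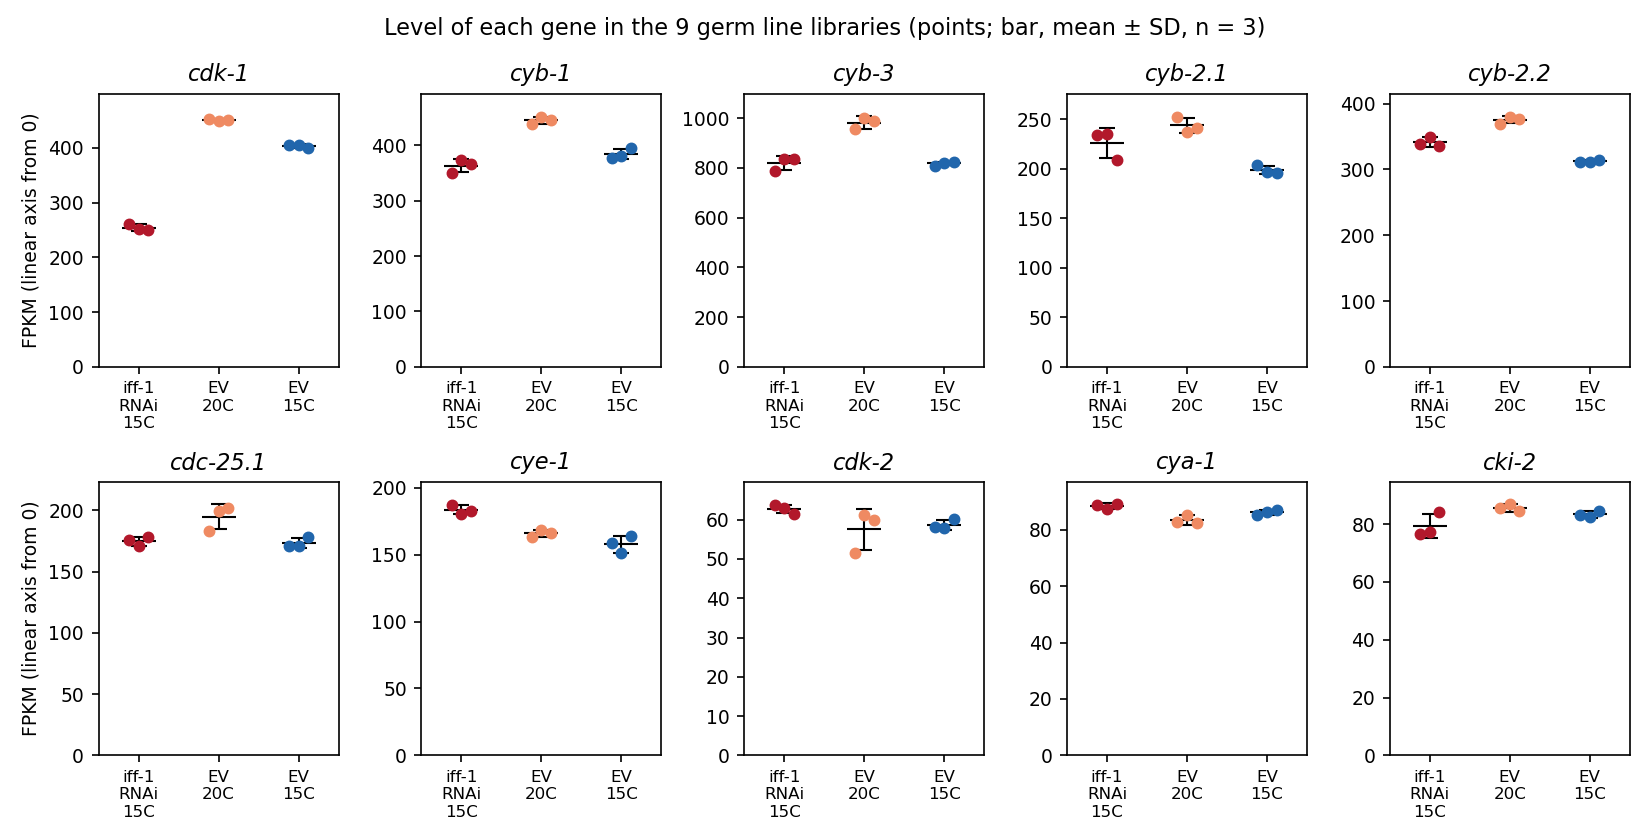
Level of the 10 genes in FPKM (linear axes from 0) in the 9 libraries, by group. Points are libraries and bars are the mean ± SD (n = 3). The cdk-1 points of iff-1 RNAi 15C, between 249.7 and 261 FPKM, lie below all EV points, and the points of the 4 cyb genes are highest in EV 20C.

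The gene cdk-1 (WBGene00000405, chromosome III, 9747472 to 9748852, plus strand, 5 exons in WBcel235) encodes the M-phase CDK. Under iff-1 RNAi it was the 1 gene of the 10 called lower than in EV 15C. It had 261, 252 and 249.7 FPKM in iff-1 RNAi 15C, 452, 449 and 451 FPKM in EV 20C, and 405, 405 and 399.7 FPKM in EV 15C. The 3 groups did not overlap, and the iff-1 RNAi libraries were the lowest by a margin many times the spread within any group. Against EV 15C, cdk-1 fell by 36.9% under iff-1 RNAi (log2 -0.66, SE 0.024, adjusted p = 9.28e-06), and this log2 change was the 111th lowest of 8572. Between EV 20C and EV 15C it was 11.8% higher at 20°C (log2 0.16, SE 0.024, adjusted p = 0.00267). Set directly against EV 20C, where RNAi and temperature both differ, cdk-1 fell by 43.6% in iff-1 RNAi 15C (log2 -0.82, SE 0.024, adjusted p = 1.46e-06). With 3 libraries against 3, an exact permutation test (two-sided) cannot go below p = 0.1.

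The gene cdk-1 is the neighbour of the RNAi target. In WBcel235, iff-1 lies on chromosome III at 9745862 to 9747193 on the minus strand and cdk-1 at 9747472 to 9748852 on the plus strand, so that their starts face away from each other across 278 bases. Of the 12 other genes annotated within 10000 bases of iff-1, a window chosen after the value of cdk-1 was seen, 6 were tested. Of these 6, cdk-1 was the 1 called lower in iff-1 RNAi 15C than in EV 15C, and 1 was called higher. Over all tested genes 15% were called lower and 16% higher, so these counts are near the background. The next gene on the cdk-1 side, T05G5.4, had 5.29 ± 0.834 FPKM in iff-1 RNAi 15C, 8.19 ± 1.49 FPKM in EV 20C and 6.68 ± 1.15 FPKM in EV 15C. It was not called against EV 15C (log2 -0.29, adjusted p = 0.219), but it was called lower in iff-1 RNAi 15C than in EV 20C, without overlap (log2 -0.54, adjusted p = 0.0241). That call ended without EV 20C replicate 1 or 2 or iff-1 RNAi 15C replicate 1 or 2 (adjusted p = 0.0623 to 0.0872), with no filter on low values (adjusted p = 0.0525) and without the library highest in intestine markers in each group (adjusted p = 0.157). Beyond it, T05G5.5 was called higher under iff-1 RNAi than in EV 15C (log2 0.19, adjusted p = 0.00961), with 76.5 ± 1.59 FPKM in iff-1 RNAi 15C and 67.2 ± 1.14 FPKM in EV 15C. The other 3 tested neighbours were not called against EV 15C: T05G5.1 (log2 0.058, adjusted p = 0.84), ech-6 (-0.087, adjusted p = 0.178) and vps-53 (0.12, adjusted p = 0.148). Labels and files give no sequence of the RNAi construct. The part of the neighbouring RNAi target in the fall of cdk-1 was not tested.

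**Figure D2:**
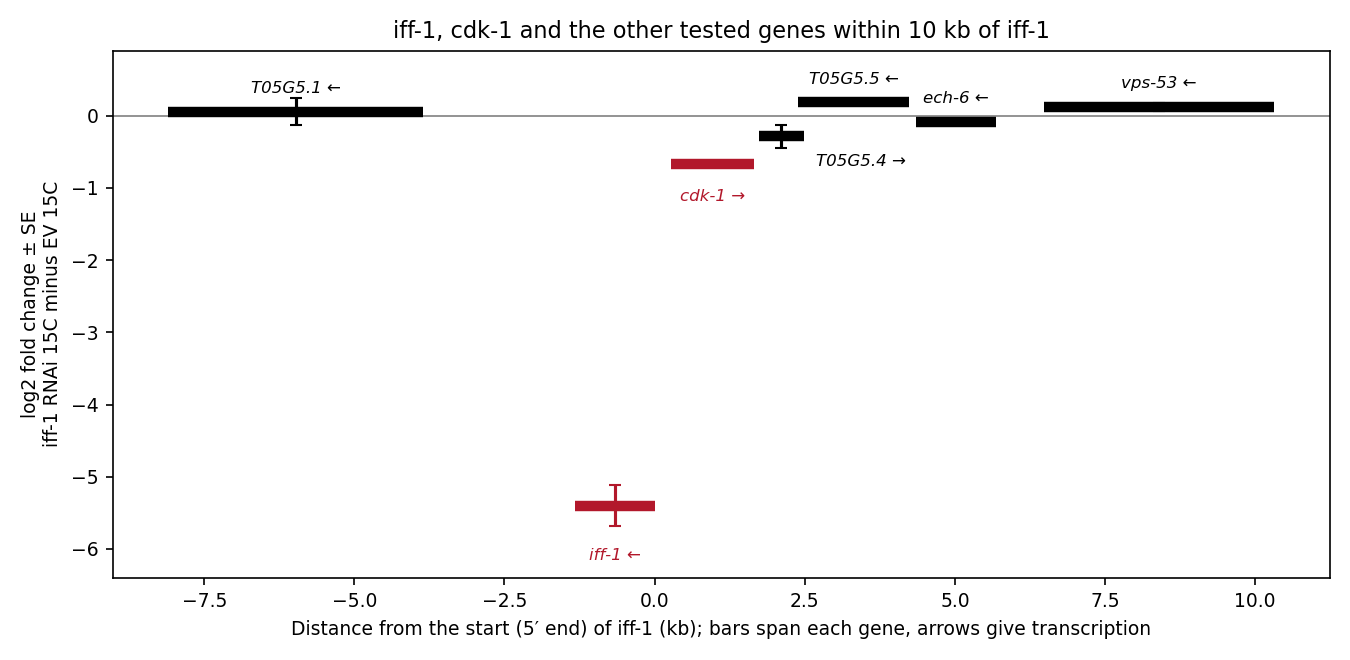
Log2 fold change ± SE (y axis, iff-1 RNAi 15C minus EV 15C) of iff-1, cdk-1 and the other tested genes within 10000 bases of iff-1, against distance from the start of iff-1 in kb (x axis). Bars span each gene and arrows give its direction of transcription. The bar of iff-1 is at -5.40 and that of its neighbour cdk-1 at -0.66, while the other 5 lie between -0.29 and 0.19.

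The 4 B-type cyclin genes, which encode the partners of CDK-1, were all higher at 20°C, by 15.9% to 22.6% over EV 15C. Under iff-1 RNAi none of them was called lower than in EV 15C. The gene cyb-3 (WBGene00000868, chromosome V, 15395696 to 15397353, plus strand, 5 exons), the cyclin B3 gene, had 786, 835 and 834 FPKM in iff-1 RNAi 15C, 955, 1002 and 989.6 FPKM in EV 20C, and 809, 820.3 and 823 FPKM in EV 15C. Every EV 20C library was above every other library, and the ranges of iff-1 RNAi 15C and EV 15C overlapped. It rose at 20°C (log2 0.26, SE 0.033, adjusted p = 0.0014), and its log2 change under iff-1 RNAi was 0.0018 (SE 0.033, adjusted p = 0.977). The gene cyb-1 (WBGene00000865, chromosome IV, 10735216 to 10737177, plus strand, 6 exons) had 349, 373 and 367 FPKM in iff-1 RNAi 15C, 438, 451 and 446 FPKM in EV 20C, and 377, 379.9 and 394 FPKM in EV 15C. Again EV 20C was the highest group without overlap. It rose at 20°C (log2 0.21, SE 0.032, adjusted p = 0.00272), while the iff-1 RNAi libraries lay just under those of EV 15C and the difference did not pass (log2 -0.080, SE 0.032, adjusted p = 0.0922).

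The genes cyb-2.1 (WBGene00000866, chromosome IV, 10985985 to 10987426, plus strand, 4 exons) and cyb-2.2 (WBGene00000867, chromosome I, 4114861 to 4116370, plus strand, 4 exons) are similar copies that may share reads, so their separate values are uncertain. The level of cyb-2.1 was 234, 235.15 and 209 FPKM in iff-1 RNAi 15C, 252, 237 and 241 FPKM in EV 20C, and 203, 197 and 196 FPKM in EV 15C. For cyb-2.2 it was 339, 349.9 and 335 FPKM in iff-1 RNAi 15C, 369, 380.0 and 377 FPKM in EV 20C, and 312, 311 and 314 FPKM in EV 15C. In both genes the groups stood apart, with EV 20C highest and iff-1 RNAi 15C in the middle. Both rose at 20°C (cyb-2.1: log2 0.29, SE 0.048, adjusted p = 0.0038; cyb-2.2: log2 0.26, SE 0.025, adjusted p = 0.000653). Both were also called higher under iff-1 RNAi than in EV 15C, by 13.7% for cyb-2.1 (log2 0.18, SE 0.048, adjusted p = 0.0214) and 9.24% for cyb-2.2 (log2 0.13, SE 0.025, adjusted p = 0.00611). The call of cyb-2.1 ended without EV 15C replicate 2 or 3 or without iff-1 RNAi 15C replicate 1 or 2 (adjusted p = 0.0668 to 0.0783) and under median ratio scaling (adjusted p = 0.0514). That of cyb-2.2 ended when libraries were scaled without the 10 highest genes (adjusted p = 0.0939). Without the library highest in intestine markers in each group, cyb-2.1 and cyb-2.2 had adjusted p = 0.192 and 0.0609 in this comparison.

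Summed over the 4 B-type cyclins, the level was 1749 ± 42.7 FPKM in iff-1 RNAi 15C, 2046 ± 28.6 FPKM in EV 20C and 1712 ± 13.9 FPKM in EV 15C. The sum was thus 19.5% higher in EV 20C than in EV 15C and 2.15% higher in iff-1 RNAi 15C than in EV 15C. The share of each gene in this sum moved by less than 2 percentage points between groups. The share of cyb-1 was 20.4, 20.8 and 21.0% in iff-1 RNAi 15C, 21.7, 21.8 and 21.7% in EV 20C, and 22.2, 22.2 and 22.8% in EV 15C, with no overlap between groups. That of cyb-2.2 was 19.5 ± 0.309% in iff-1 RNAi 15C, 18.4 ± 0.0140% in EV 20C and 18.2 ± 0.0630% in EV 15C, also without overlap. For cyb-3, which held 46.8 ± 0.915% in iff-1 RNAi 15C, 48.0 ± 0.515% in EV 20C and 47.7 ± 0.238% in EV 15C, the groups overlapped. With cyb-2.1 and cyb-2.2, which may share reads, left out of the sum, the direction for cyb-3 under iff-1 RNAi turned. Of the sum with cyb-1 alone, cyb-3 held 69.3 ± 0.172% in iff-1 RNAi 15C, 68.8 ± 0.209% in EV 20C and 68.1 ± 0.390% in EV 15C. No 2 groups overlapped. Exact two-sided permutation tests of these shares gave p = 0.1 at best, the smallest 3 against 3 libraries allow, and 0.2 after adjustment over the 12 tests. The oocyte markers, given above, were called higher at 20°C in 5 of 5 genes and 1 of 5 was called lower under iff-1 RNAi. The part of oocyte number or content in the higher B-type cyclin levels at 20°C was not tested.

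The phosphatase gene cdc-25.1 (WBGene00000386, chromosome I, 6469386 to 6471922, minus strand, 7 exons), needed for proliferation of the germ line, had 175, 171 and 178 FPKM in iff-1 RNAi 15C, 184, 199 and 202 FPKM in EV 20C, and 171, 171 and 178 FPKM in EV 15C. The EV 20C libraries were above all others, and those of iff-1 RNAi 15C and EV 15C overlapped. It was called higher at 20°C (log2 0.17, SE 0.039, adjusted p = 0.0153), and its log2 change under iff-1 RNAi was 0.010 (SE 0.039, adjusted p = 0.871). The call at 20°C ended without EV 15C replicate 1 or 2 or EV 20C replicate 3 (adjusted p = 0.055 to 0.0584) and under quantile normalization (adjusted p = 0.0806). It also ended without the library highest in intestine markers in each group (adjusted p = 0.0903). The gene overlaps K06A5.2 on the other strand by 7 bases; K06A5.2 had 0.618 to 2.13 FPKM.

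Of the genes that act at entry into DNA replication, cye-1 was called higher under iff-1 RNAi and none was called at 20°C. The cyclin E gene cye-1 (WBGene00000871, chromosome I, 6780799 to 6784397, plus strand, 8 exons) had 187, 181 and 183 FPKM in iff-1 RNAi 15C, 163, 169 and 166 FPKM in EV 20C, and 159, 151 and 164 FPKM in EV 15C. Every iff-1 RNAi library was above every EV library, and the EV groups overlapped. It rose by 16.3% under iff-1 RNAi against EV 15C (log2 0.22, SE 0.033, adjusted p = 0.00216), and its difference between EV 20C and EV 15C did not pass (log2 0.072, SE 0.033, adjusted p = 0.136). Its kinase partner cdk-2 (WBGene00019362, chromosome I, 3410013 to 3416368, plus strand, 7 exons) had 63.7, 63.0 and 61.5 FPKM in iff-1 RNAi 15C, 51.5, 61.2 and 59.9 FPKM in EV 20C, and 58.1, 57.8 and 60.1 FPKM in EV 15C. The iff-1 RNAi libraries were the highest 3, and 1 EV 20C library stood well below the rest. No difference of cdk-2 passed: log2 0.095 for iff-1 RNAi 15C against EV 15C (adjusted p = 0.266) and -0.031 for EV 20C against EV 15C (adjusted p = 0.729). Without EV 20C replicate 1, which adds to the shared estimate of spread, the first of these had adjusted p = 0.0389.

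The cyclin A gene cya-1 (WBGene00000863, chromosome III, 9106699 to 9109272, minus strand, 6 exons) had 88.7, 87.3 and 89.2 FPKM in iff-1 RNAi 15C, 82.7, 85.3 and 82.2 FPKM in EV 20C, and 85.3, 86.4 and 87.1 FPKM in EV 15C. The groups stood apart in this order of size: iff-1 RNAi 15C, EV 15C, EV 20C, with differences of a few percent. Neither comparison with EV 15C passed (log2 0.035, adjusted p = 0.343 for iff-1 RNAi; log2 -0.048, adjusted p = 0.196 for 20°C). At 20°C cya-1 was called lower under median ratio scaling (log2 -0.086, adjusted p = 0.0311) and quantile normalization (log2 -0.090, adjusted p = 0.0354). The CDK inhibitor gene cki-2 (WBGene00000517, chromosome II, 7816499 to 7820281, plus strand, 7 exons), of the CIP/KIP family, had 76.7, 77.2 and 84.0 FPKM in iff-1 RNAi 15C, 85.4, 86.9 and 84.4 FPKM in EV 20C, and 83.2, 82.3 and 84.5 FPKM in EV 15C. Of the iff-1 RNAi libraries, 2 were below all EV libraries and the other lay among them. Its difference from EV 15C did not pass under iff-1 RNAi (log2 -0.072, SE 0.038, adjusted p = 0.184) or at 20°C (log2 0.038, SE 0.038, adjusted p = 0.489). Without iff-1 RNAi 15C replicate 3 the first had adjusted p = 0.0194. Of the genes that overlap these by annotation, dos-1, over cya-1, had 0.138 to 0.496 FPKM, and the antisense RNA anr-45 over cdk-2 was listed at 0 throughout. The noncoding gene K03E5.9 in cdk-2 was listed at 0 in all libraries but iff-1 RNAi 15C replicate 3, where it had 104 FPKM.

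Counted over the 10 genes, 6 were called higher and 0 lower in EV 20C than in EV 15C, where 28% of all tested genes were called (19.3% higher and 8.69% lower). The 6 were cdk-1, the 4 cyb genes and cdc-25.1. The median log2 change of the 10 genes was 0.16, beside 0.032 over all tested genes. In iff-1 RNAi 15C against EV 15C, 3 of the 10 were called higher (cyb-2.1, cyb-2.2 and cye-1) and 1 lower (cdk-1), where 31% of tested genes were called (16% higher and 15% lower). That share is close to the background, and the median log2 change was 0.023, beside 0.015 over all tested genes. Both comparisons share the EV 15C libraries. Without the library highest in intestine markers in each group, the counts were 5 higher at 20°C, and 1 higher and 1 lower under iff-1 RNAi. That fit has fewer libraries, and of the 8572 genes it called 680 higher and 431 lower at 20°C. Under iff-1 RNAi it called 416 higher and 511 lower. The calls that ended had log2 values of 0.17 (cdc-25.1), 0.14 (cyb-2.1) and 0.14 (cyb-2.2) there, and 0.17, 0.18 and 0.13 with all libraries.

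The difference between the comparisons was tested by setting iff-1 RNAi 15C directly against EV 20C. Here 48.9% of tested genes were called (20.5% higher and 28.4% lower). Among the 10 genes, 6 were called lower in iff-1 RNAi 15C: cdk-1, cyb-1 (log2 -0.29, adjusted p = 0.000223), cyb-3 (log2 -0.26, adjusted p = 0.000417), cyb-2.2 (log2 -0.14, adjusted p = 0.00218), cdc-25.1 (log2 -0.16, adjusted p = 0.0105) and cki-2 (log2 -0.11, adjusted p = 0.0409). The 2 called higher were cye-1 (log2 0.15, adjusted p = 0.00703) and cya-1 (log2 0.083, adjusted p = 0.0277). The call of cki-2 ended in 15 of 20 alternatives (adjusted p of up to 0.276, without the library highest in intestine markers in each group). Of these, 8 were among the 9 that leave out a single library (adjusted p of up to 0.127). In those 9 the call held only without iff-1 RNAi 15C replicate 3. That of cya-1 ended in 9 of 20 (adjusted p of up to 0.523, scaled without the 10 highest genes). These included the fits without iff-1 RNAi 15C replicate 1 or 3 or EV 20C replicate 1 or 3 (adjusted p = 0.0535 to 0.0924). The call of cyb-2.2 ended under quantile normalization (adjusted p = 0.0916), and that of cdc-25.1 under quantile normalization (adjusted p = 0.0673) and without the library highest in intestine markers in each group (adjusted p = 0.0921). That of cye-1 ended when libraries were scaled without the 10 highest genes (adjusted p = 0.176). Groups did not overlap in any of the 10 genes in this comparison, beside 56.5% of all tested genes. Against EV 15C they did not overlap in 7 of the 10 genes at 20°C (45.4% of tested genes) and in 7 under iff-1 RNAi (49.7%).

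**Figure D3:**
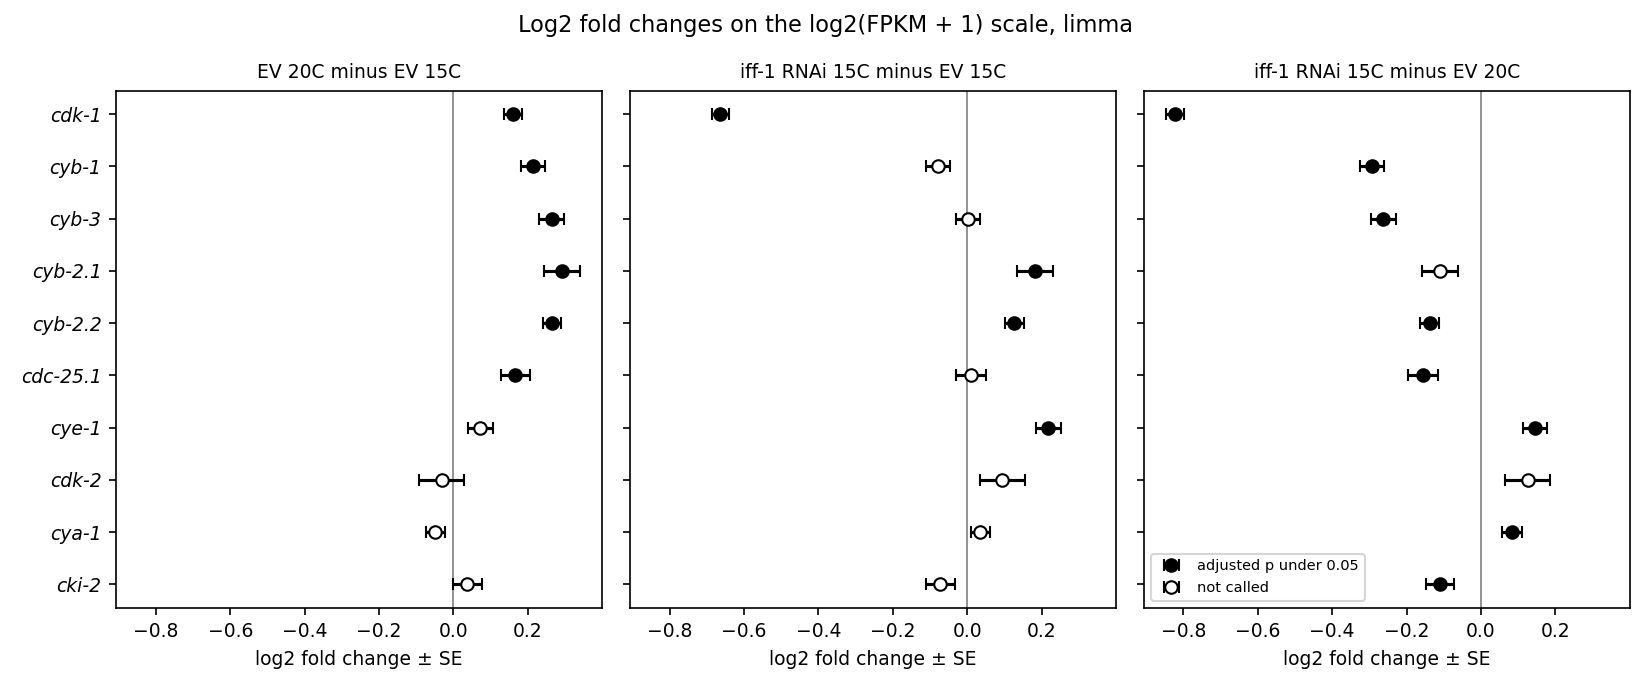
Log2 fold change ± SE of the 10 genes (x axes, on the log2(FPKM + 1) scale) in the 3 comparisons. Filled points had a limma adjusted p under 0.05. At 20°C the 6 filled points lie between 0.16 and 0.29, and under iff-1 RNAi cdk-1 stands alone at -0.66.

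A ratio within a library does not depend on the scaling between libraries. Relative to cdk-1, the level of cyb-3 was 3.01, 3.31 and 3.34 times that of cdk-1 in the iff-1 RNAi 15C libraries, 2.11, 2.23 and 2.196 times in EV 20C, and 2.00, 2.03 and 2.06 times in EV 15C. The ratio of cyb-1 to cdk-1 was 1.43 ± 0.0793 in iff-1 RNAi 15C, 0.987 ± 0.0183 in EV 20C and 0.952 ± 0.0304 in EV 15C. The cye-1 ratio was the one that differed most from EV 15C, at 0.722 ± 0.00854 in iff-1 RNAi 15C, 0.368 ± 0.00734 in EV 20C and 0.392 ± 0.0181 in EV 15C. All 9 ratios to cdk-1 were higher in every iff-1 RNAi library than in any EV library. This shows unequal change, with cdk-1 as the common denominator, so the 9 ratios are not separate results. The ratios shifted by 0.59 (cyb-1 and cki-2) to 0.88 (cye-1) on the log2 scale between iff-1 RNAi 15C and EV 15C. Between EV 20C and EV 15C they shifted by at most 0.21 in size (cya-1, log2 -0.21): those of cyb-2.1, cyb-2.2 and cyb-3 were higher at 20°C, those of cdk-2, cya-1 and cki-2 lower, and those of cyb-1, cdc-25.1 and cye-1 overlapped between groups.

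**Figure D4:**
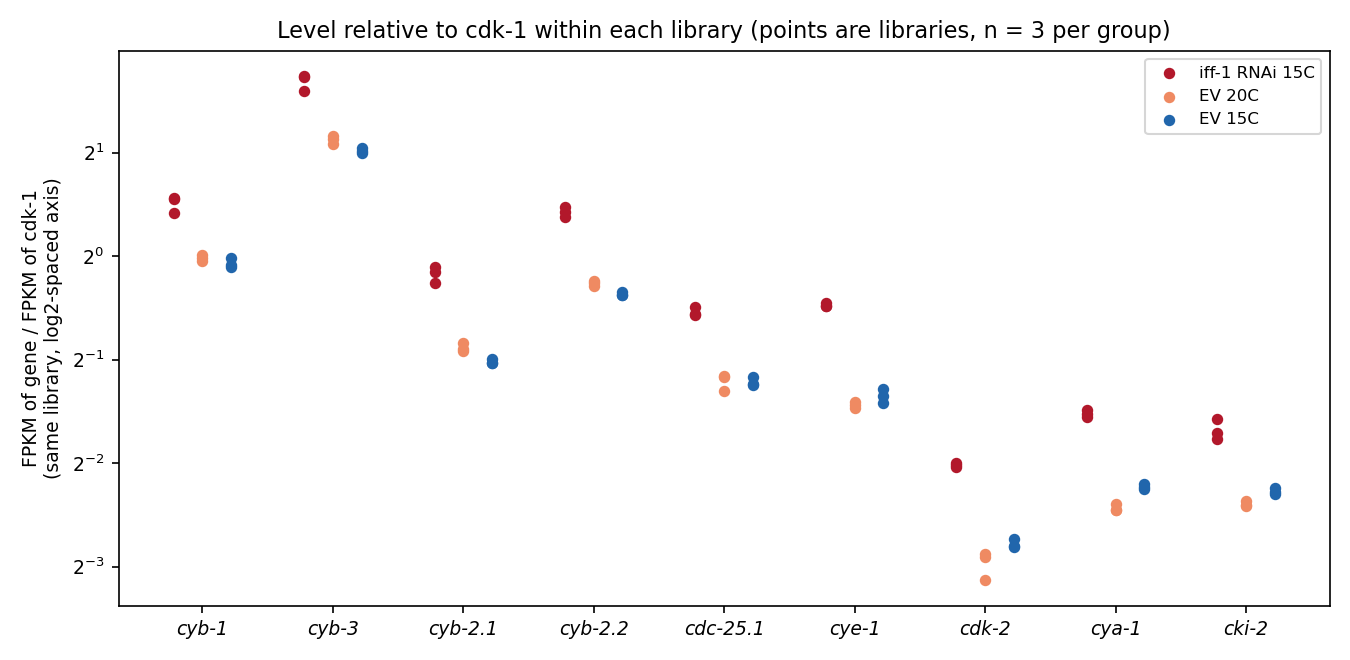
Ratio of the FPKM of each of the other 9 genes to that of cdk-1 in the same library (y axis, spaced on a log2 scale). Points are libraries, n = 3 per group. The iff-1 RNAi 15C points lie above all EV points for every gene; for cyb-3 they lie between 3.01 and 3.34.

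Other regulators of the cell cycle were read from 6 gene lists, whose counts stand beside 28% of all tested genes called at 20°C (19.3% higher and 8.69% lower) and 31% called under iff-1 RNAi against EV 15C (16% higher and 15% lower). Calls were also read without the library highest in intestine markers in each group, called here the intestine-highest libraries. With fewer libraries, that fit called fewer genes of all tested: 680 higher and 431 lower at 20°C, and 416 higher and 511 lower under iff-1 RNAi. Among 6 further cell cycle cyclins, CDKs and inhibitors, 3 were called higher and 1 lower at 20°C, and 1 higher and 2 lower under iff-1 RNAi against EV 15C. The G1 kinase gene cdk-4 rose at 20°C and was low in all groups, with 5.56 ± 0.235 FPKM in iff-1 RNAi 15C, 11.9 ± 0.146 FPKM in EV 20C and 7.53 ± 0.883 FPKM in EV 15C (log2 0.61, adjusted p = 0.00243 at 20°C). Its lower value under iff-1 RNAi passed (log2 -0.37, adjusted p = 0.014) but not without EV 15C replicate 2 (adjusted p = 0.055) or without the intestine-highest libraries (adjusted p = 0.108). The gene of the CDK-activating kinase, cdk-7, rose under iff-1 RNAi, with 157 ± 10.5 FPKM in iff-1 RNAi 15C and 125 ± 4.96 FPKM in EV 15C (log2 0.32, adjusted p = 0.00215). The other calls ended when any of several single libraries was left out: cki-1 (log2 0.42, highest adjusted p = 0.146), cdk-7 (0.18, 0.0878) and mnat-1 (-0.14, 0.131) at 20°C, and mnat-1 under iff-1 RNAi (-0.13, 0.132). The cyclin D gene cyd-1 (log2 0.27 at 20°C and -0.12 under iff-1 RNAi) and the cyclin H gene cyh-1 (0.12 and 0.033) did not pass in either. Set directly against EV 20C, cyd-1 was called lower in iff-1 RNAi 15C (log2 -0.39, adjusted p = 0.0365). That call was lost with a library left out (adjusted p of up to 0.11).

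Among 13 tested cyclins and CDKs of transcription or other roles, 6 were called higher and 0 lower at 20°C, and 2 higher and 1 lower under iff-1 RNAi. At 20°C, cdk-8 of the Mediator complex (log2 0.29, adjusted p = 0.00118), the cyclin T gene cit-1.2 (log2 0.27, adjusted p = 0.00796), the cyclin L gene cyl-1 (log2 0.20, adjusted p = 0.0118) and the PCTAIRE kinase gene pct-1 (log2 0.17, adjusted p = 0.00352) rose, also with any 1 library left out. Without the intestine-highest libraries cdk-8 still passed, but cit-1.2, cyl-1 and pct-1 did not (adjusted p = 0.052, 0.076 and 0.0505). The calls of cdk-9 (log2 0.17) and cdk-5 (0.11) did not withstand leaving out 1 library (adjusted p of up to 0.092 and 0.113). Under iff-1 RNAi, the other cyclin T gene cit-1.1 rose (log2 0.18, adjusted p = 0.00337), though not without the intestine-highest libraries (adjusted p = 0.0575), and the calls of cyy-1 (log2 0.12) and cit-1.2 (-0.16) were lost with a library left out (adjusted p of up to 0.0557 and 0.143). The 2 cyclin T genes, whose products pair with CDK-9, thus had log2 changes of opposite sign under iff-1 RNAi. The kinase activator gene cdka-1 was near 0 and was not tested.

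The CDC25 paralogues, WEE1-family kinases, CKS and CDC14 had 5 of 5 tested genes called higher at 20°C, or 2 without the intestine-highest libraries, and 2 higher and 0 lower under iff-1 RNAi. The largest of these rises was that of cdc-25.3, a paralogue of cdc-25.1. It had 35.4, 33.1 and 41.8 FPKM in iff-1 RNAi 15C, 65.7, 70.5 and 67.4 FPKM in EV 20C, and 39.2, 40.0 and 38.7 FPKM in EV 15C. The EV 20C libraries stood far above all others, by 72.7% over EV 15C (log2 0.77, SE 0.075, adjusted p = 0.000727). The CDK-binding subunit gene cks-1 rose at 20°C (log2 0.18, adjusted p = 0.00727), as did the phosphatase gene cdc-14 (log2 0.14, adjusted p = 0.0129), whose call ended under quantile normalization and without the intestine-highest libraries (adjusted p = 0.0586 in the second). The calls of cdc-25.2 (log2 0.29) and of wee-1.3, whose MYT1-type kinase holds CDK-1 inactive in oocytes (0.14), were lost at 20°C with a library left out (adjusted p of up to 0.103 and 0.139). So were the calls under iff-1 RNAi of cks-1 (log2 0.14, up to 0.0528) and wee-1.3 (0.13, up to 0.151). The level of cks-1, 450.1 ± 10.9 FPKM in iff-1 RNAi 15C, 461 ± 19.4 FPKM in EV 20C and 407 ± 4.75 FPKM in EV 15C, was not called lower where cdk-1 was. The genes cdc-25.4 and wee-1.1 were near 0 and not tested.

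Of 20 genes of the ubiquitin ligases that destroy cyclins and CDK inhibitors, 5 were called higher and 1 lower at 20°C, and 2 higher and 5 lower under iff-1 RNAi. In total these shares are close to those over all tested genes. By direction those were 19.3% higher and 8.69% lower at 20°C, and 16% higher and 15% lower under iff-1 RNAi. The gene zyg-11, a CUL-2 ligase subunit that acts on B-type cyclin, was higher in one comparison and lower in the other: it had 85.0, 85.1 and 88.7 FPKM in iff-1 RNAi 15C, 121, 128 and 129.9 FPKM in EV 20C, and 103, 103 and 109 FPKM in EV 15C. The groups did not overlap, with EV 20C highest and iff-1 RNAi 15C lowest (log2 0.26, adjusted p = 0.00226 at 20°C; log2 -0.28, adjusted p = 0.00127 under iff-1 RNAi). Among subunits of the anaphase-promoting complex, which destroys B-type cyclins, mat-3 fell in both comparisons (log2 -0.30, adjusted p = 0.00205 at 20°C; log2 -0.39, adjusted p = 0.000593 under iff-1 RNAi). Under iff-1 RNAi mat-2 fell (log2 -0.37, adjusted p = 0.00105) and apc-11 rose (log2 0.20, adjusted p = 0.00582), and at 20°C emb-27 (log2 0.15, adjusted p = 0.00774) and the cullin partner gene rbx-1 (log2 0.16, adjusted p = 0.0129) rose. Without the intestine-highest libraries, apc-11 under iff-1 RNAi (adjusted p = 0.0801) and rbx-1 at 20°C (adjusted p = 0.0888) did not pass. Calls lost with a library left out were those of fzr-1 (log2 0.19) and cul-2 (0.15) at 20°C, and of rbx-1 (0.15), cul-1 (-0.14) and apc-2 (-0.11) under iff-1 RNAi. The adaptor gene skr-1 was listed at 0 in 5 of 9 libraries and at 327 to 351 FPKM in the others, so no fold change is given, whereas its close relative skr-2 had 393 to 438 FPKM throughout.

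Of the 6 Polo, Aurora and DYRK kinase genes, 3 were called higher and 0 lower at 20°C, and 1 higher and 1 lower under iff-1 RNAi. The Aurora kinase genes air-1 (log2 0.19, adjusted p = 0.00193) and air-2 (log2 0.22, adjusted p = 0.00676) rose at 20°C, and air-1 also rose under iff-1 RNAi (log2 0.16, adjusted p = 0.00285). The Polo-like kinase gene plk-2, which acts in meiotic chromosome pairing, fell under iff-1 RNAi (log2 -0.12, adjusted p = 0.0101). Without the intestine-highest libraries, air-2 at 20°C (adjusted p = 0.0523) and plk-2 under iff-1 RNAi (adjusted p = 0.0982) did not pass. The call of plk-3 at 20°C (log2 0.12) was lost with a library left out (adjusted p of up to 0.0886), and plk-1 (log2 -0.042 at 20°C and -0.10 under iff-1 RNAi) and mbk-2 (0.11 and 0.038) did not pass.

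Among 7 regulators of cyclin and CDK inhibitor mRNA, 1 was called higher and 0 lower at 20°C, and 1 higher and 2 lower under iff-1 RNAi. The gene gld-1, whose RNA-binding product represses cye-1 mRNA, had 914, 971 and 905 FPKM in iff-1 RNAi 15C, 801, 806 and 818 FPKM in EV 20C, and 808, 800.4 and 805 FPKM in EV 15C. Its iff-1 RNAi libraries were the highest 3, as for cye-1, without overlap (log2 0.21, adjusted p = 0.00209). The gene fbf-2, of a PUF protein that represses gld-1 mRNA in stem cells, fell under iff-1 RNAi, with 9.74 ± 1.17 FPKM in iff-1 RNAi 15C and 13.9 ± 0.301 FPKM in EV 15C (log2 -0.48, adjusted p = 0.00759). That call ended without the intestine-highest libraries (adjusted p = 0.0543). Its near copy fbf-1 had log2 -0.14 under iff-1 RNAi (adjusted p = 0.101), and reads of the pair may be shared. The calls of fbf-1 at 20°C (log2 0.22) and of the E2F gene efl-1 under iff-1 RNAi (-0.15) were lost with a library left out (adjusted p of up to 0.0985 and 0.12). The Rb gene lin-35 (log2 0.17 under iff-1 RNAi, adjusted p = 0.114) did not pass against EV 15C. It was called higher in iff-1 RNAi 15C than in EV 20C (log2 0.25, adjusted p = 0.0208), a call lost with a library left out (adjusted p of up to 0.0603).

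**Figure D5:**
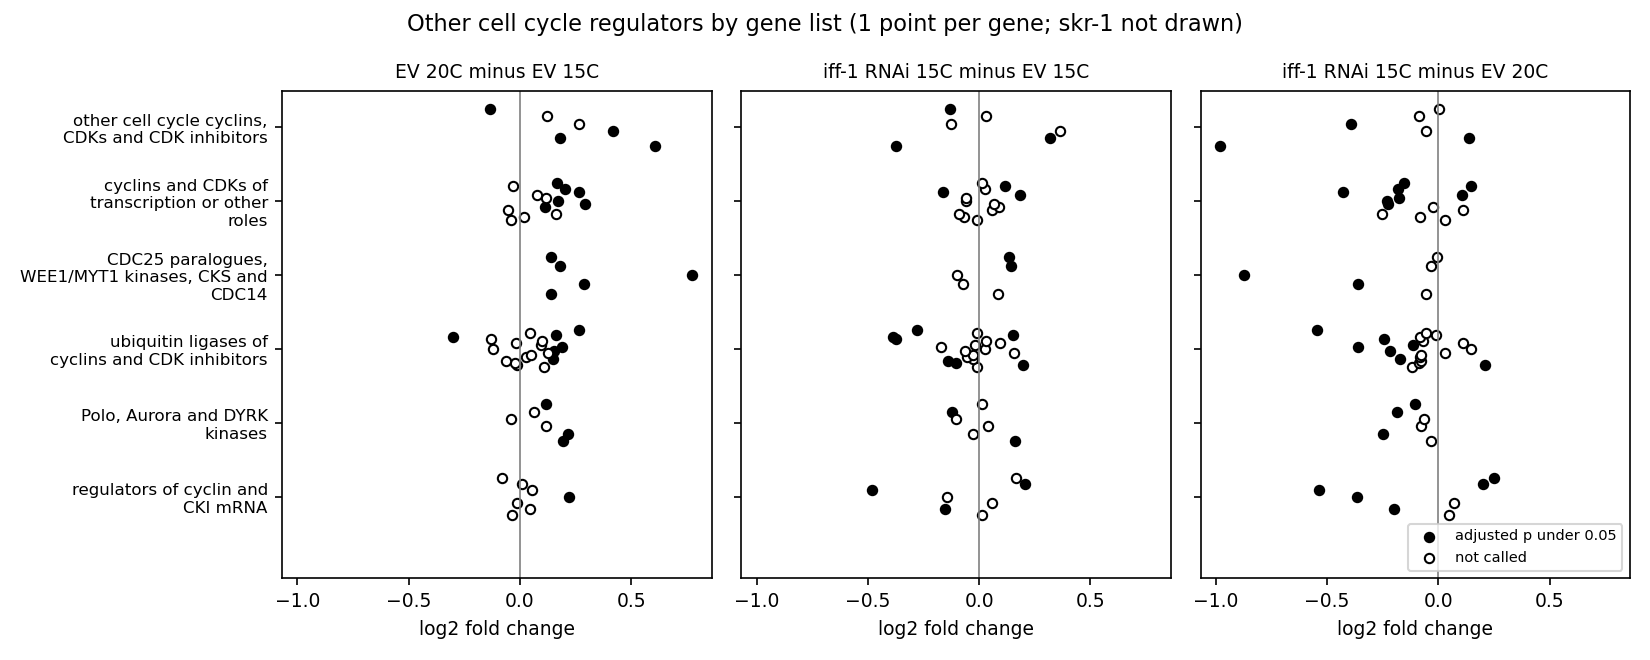
Log2 fold change (x axes) of each tested gene of the 6 lists, 1 point per gene, in the 3 comparisons. Filled points had a limma adjusted p under 0.05, and skr-1 is not drawn. The points farthest right at 20°C are cdc-25.3 at 0.77 and cdk-4 at 0.61.

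Median log2 changes of the 6 lists at 20°C were 0.22 for further cell cycle genes, 0.12 for transcription CDKs and cyclins, 0.18 for CDC25, WEE1, CKS and CDC14, 0.071 for ubiquitin ligases, 0.12 for Polo, Aurora and DYRK kinases and 0.0066 for mRNA regulators, beside 0.032 over all tested genes. Under iff-1 RNAi they were -0.046, 0.014, 0.083, -0.025, -0.0095 and 0.011 in the same order, beside 0.015 over all tested genes.

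Likeness of pattern was measured as the root-mean-square difference between genes in log2(FPKM + 1), centred on each gene's mean, over the 9 libraries. The 5 tested genes outside the 10 that lay nearest to cdk-1 were dld-1 (difference 0.0621), F56A11.5 (0.0621), lmd-2 (0.0710), F17H10.1 (0.0729) and tli-1 (0.0746), where the median over all other tested genes was 0.377. The nearest, dld-1 on chromosome IV, which encodes dihydrolipoamide dehydrogenase of mitochondria, had 118 ± 6.65 FPKM in iff-1 RNAi 15C, 208 ± 7.80 FPKM in EV 20C and 192 ± 3.14 FPKM in EV 15C. For the other members the nearest genes outside the 10 were ekl-7 for cyb-1 (0.0265), mei-1 for cyb-3 (0.0208), K04C2.3 for cyb-2.1 (0.0356), zipt-7.1 for cyb-2.2 (0.0234) and Y76B12C.6 for cdc-25.1 (0.0236). They were F44B9.5 for cye-1 (0.0165), unc-40 for cdk-2 (0.0259), ced-12 for cya-1 (0.0188) and nurf-1 for cki-2 (0.0225). The gene mei-1, which encodes the katanin subunit of the oocyte meiotic spindle, had 171 ± 2.72 FPKM in iff-1 RNAi 15C, 208 ± 5.21 FPKM in EV 20C and 173 ± 3.96 FPKM in EV 15C. It was picked for its likeness to cyb-3 in these libraries, so that likeness is no separate result.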

How the data were processed

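The authors' deposited table gives 1 FPKM value per gene and library, for poly-A RNA from a stranded kit read as paired 75-nt reads, per the labels' protocols. The submitters' processing notes name CASAVA and Cufflinks, without roles. Aligner, build, annotation release and strand setting: not given in the sources used here. All 9 columns were matched to samples. Symbols came from a name table (43227 of 46245 IDs). Coordinates, exons and overlaps describe WBcel235 (Ensembl release 115) alone, and the authors' build may differ.

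On log2(FPKM + 1), a scale that understates the change of low genes, changes were fitted in R 4.3.3 with limma 3.58.1. A gene was tested if it averaged 1 FPKM or more. All 9 libraries entered 1 fit with a mean per group, 6 residual degrees of freedom and a variance trend. Tests were two-sided, adjusted over the 8572 genes by Benjamini-Hochberg, and called at an adjusted p under 0.05. Depth was estimated from steps between low values, of which 74.2% to 76.5% were whole numbers of steps to within 0.25, too few to recover reads. The fit was also run on simulated data with independent noise and far fewer changed genes than were called here. That run does not show its error rate for these data. No count test was used.

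Named genes were the 10 members, iff-1, the listed regulators called against EV 15C plus up to 2 per list that were not, and the nearest genes by pattern. Called lower only in iff-1 RNAi 15C against EV 20C, and not described above, were cic-1 (log2 -0.18, adjusted p = 0.011) and fzy-1 (log2 -0.11, adjusted p = 0.0174). Their calls ended without the intestine-highest libraries (adjusted p = 0.0994 and 0.161). The 6 lists were further cell cycle cyclins, CDKs and inhibitors; cyclins and CDKs of transcription or other roles; CDC25, WEE1, CKS and CDC14; ubiquitin ligases; Polo, Aurora and DYRK kinases; and mRNA regulators. Members and lists were chosen with earlier results of these data known. The symbol wee-1.2 was not matched. The 20 alternatives covered the pseudocount, the filter, scaling, the replicate block, the variance model, the samples fitted, each library left out in turn and, chosen after seeing the data, the library highest in intestine markers left out of each group.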

Additional observations from a re-analysis of the deposited data

How the results depend on the processing

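The rises of cdk-1, cyb-1, cyb-3, cyb-2.1 and cyb-2.2 at 20°C, and under iff-1 RNAi against EV 15C the fall of cdk-1 and the rise of cye-1, passed in all 20 alternatives, and no called value of the 10 genes changed sign. The cause of the changes below was not tested. Log2 values are given with their adjusted p in brackets.

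At 20°C against EV 15C, median ratio scaling and quantile normalization called 1 of the 10 genes lower, cya-1 (-0.086 [0.0311] and -0.090 [0.0354]). The call of cdc-25.1 ended under quantile normalization (0.12 [0.0806]) and without the intestine-highest libraries (0.17 [0.0903]), and its value ran from 0.14 to 0.21 with 1 library left out. Over all genes, 1656 higher and 745 lower calls (69.0% higher) became 1228 and 1041 (54.1%) under median ratio scaling, 1261 and 1021 (55.3%) under quantile normalization, 1807 and 512 (77.9%) scaled without the 10 highest genes, and 680 and 431 without the intestine-highest libraries. With 1 library left out they ran from 1091 to 1729 higher and from 397 to 789 lower.

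Under iff-1 RNAi against EV 15C, cyb-2.1 did not pass under median ratio scaling (0.17 [0.0514]), nor cyb-2.2 when scaled without the 10 highest genes (0.11 [0.0939]). Without the intestine-highest libraries neither passed (0.14 [0.192] and 0.14 [0.0609]), so that 1 of the 10 genes was called higher, and over all genes there were 416 higher and 511 lower calls. With 1 library left out, values ran from 0.15 to 0.24 for cyb-2.1, 0.084 to 0.11 for cdk-2 and -0.11 to -0.049 for cki-2, with 1 to 2 of the 10 genes called lower.

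For iff-1 RNAi 15C against EV 20C, quantile normalization left 3 of the 10 genes called lower, without cyb-2.2 (-0.075 [0.0916]), cdc-25.1 (-0.11 [0.0673]) and cki-2 (-0.082 [0.0611]). Scaled without the 10 highest genes, 0 were called higher, since cye-1 (0.097 [0.176]) and cya-1 (0.035 [0.523]) did not pass, and cyb-2.1 was called lower (-0.16 [0.0326]). Over all 8572 genes, 1759 higher and 2434 lower calls became 1956 and 2157 under quantile normalization and 1324 and 2749 scaled without the 10 highest genes. Without the intestine-highest libraries they were 1285 and 1690. With 1 library left out they ran from 1371 to 1766 higher and from 1993 to 2458 lower. The call of cki-2 also ended with no filter on low values (-0.11 [0.0641]) and under median ratio scaling (-0.086 [0.0594]). Both cya-1 and cki-2 lost their calls, leaving 1 gene called higher, under the replicate block (0.083 [0.0534] and -0.11 [0.0569]), without the variance trend (0.083 [0.0512] and -0.11 [0.0644]), with only the compared groups fitted (0.083 [0.0588] and -0.11 [0.0834]) and without the intestine-highest libraries (0.097 [0.0668] and -0.075 [0.276]), where cdc-25.1 did not pass either (-0.14 [0.0921]). With 1 library left out, cya-1 ran from 0.074 to 0.10 and cki-2 from -0.15 to -0.087, with 1 to 2 genes called higher. Without cyb-2.1 and cyb-2.2, the share of cyb-3 was 1.22 points higher in iff-1 RNAi 15C than in EV 15C and 0.45 points higher than in EV 20C, against -0.93 and -1.18 points with them.

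Replicate numbers did not pair the libraries: deviations of same-numbered libraries correlated at -0.19 to 0.08, and the same number gave the best match in 2 of 18 cases. A fit with the replicate block called 1479 genes higher and 679 lower at 20°C, and of the 10 genes it ended the 2 calls named above. Depth is known only as an estimate, so no counting interval is given.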
